A study of Mus musculus with 2 samples.

Results

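The genes described here encode the chains of the collagens that fill the interstitium of the lung. They are the fibril-forming chains Col1a1, Col1a2, Col3a1, Col5a1 and Col5a2, the collagen VI chains Col6a1, Col6a2 and Col6a3, and the fibril-associated chains Col12a1 and Col14a1. They were taken by gene symbol from the table of features, and all 10 were found among its 29004 features.

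The libraries came from whole lungs of mouse pups at postnatal day 6. All pups carried one Gli1-CreERT2 allele, a tamoxifen-dependent Cre placed in the Gli1 locus and so active in cells that respond to Hedgehog, together with one R26R tdTomato reporter allele. All received tamoxifen under the skin on postnatal day 1. On day 3 one group was given 5E1, an antibody that blocks Hedgehog ligands, and the other was given control IgG. Lungs of 3 pups per condition were pooled, digested with dispase and collagenase, and run as 1 droplet library of 3′ transcript ends per condition. There was therefore no replicate and no test between conditions, and every interval below covers counting error only. No wild-type or untreated animals were among the samples.

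Collagen chains fold in threes into triple helices. Type I (2 chains of Col1a1 with 1 of Col1a2) and type III form the bulk of tissue fibrils, and type V chains sit inside these fibrils and limit their width. Type VI assembles from its 3 chains into beaded filaments around cells, and types XII and XIV attach to fibril surfaces. In the postnatal lung, interstitial fibroblasts, the myofibroblasts of growing septa and the sheaths of airways and vessels make most of this matrix. Hedgehog ligand comes mainly from epithelium and is received mainly by the mesenchyme.

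After the submitters' cell filter the IgG library held 13509 cells with a median of 4541 unique molecular identifiers (UMIs, 1 per captured transcript), and the 5E1 library 9454 cells with a median of 4636. The submitters divided the cells into 23 clusters, and 11 of these were mesenchymal by marker genes. Clusters 12, 21 and 23 were alveolar myofibroblast-like, 14, 19 and 20 matrix fibroblast-like, 18 adventitial fibroblast-like, 16 and 22 smooth muscle-like, 13 pericyte-like and 17 mesothelial-like. Col1a1, Col1a2, Col3a1 and Col14a1 were among the 10 leading genes of cluster 18, and Col12a1 among those of cluster 21, so their height in those clusters is part of what defines them. Clusters outside the mesenchyme held 61.7% of cells in the 5E1 library and 48.6% in the IgG library. Mesenchymal cells with an Xist UMI and no Y-linked UMI made up 97.1% of the IgG library's and 27.8% of the 5E1 library's, so the pups pooled for the libraries differed in sex makeup. The libraries shared 184 cell barcodes.

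Levels are UMIs of a gene scaled to the UMI total of its cluster (CPM), with exact 95% Poisson intervals, and "with IgG" or "with 5E1" stands for the library of that condition. A 3′ UMI count is 1 per transcript and was not divided by length, so levels are compared for one gene between clusters or libraries and not between genes.

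Across the mesenchyme the members took between 0.214% (pericyte-like cluster 13) and 3.54% (adventitial fibroblast-like cluster 18) of a cluster's UMIs in the IgG library. In the 5E1 library the same clusters bounded the range, at 0.236% and 3.62%. Mesothelial-like cluster 17 came next after cluster 18 in the IgG library, followed by matrix fibroblast-like cluster 14 with 1.13%. In the 5E1 library cluster 14 (1.32%) stood above cluster 17 (1.27%). Alveolar myofibroblast-like cluster 21 stood at 0.603% and 0.739%, above the other myofibroblast-like clusters 12 (0.284% and 0.270%) and 23 (0.349% and 0.343%).

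**Figure D1:**
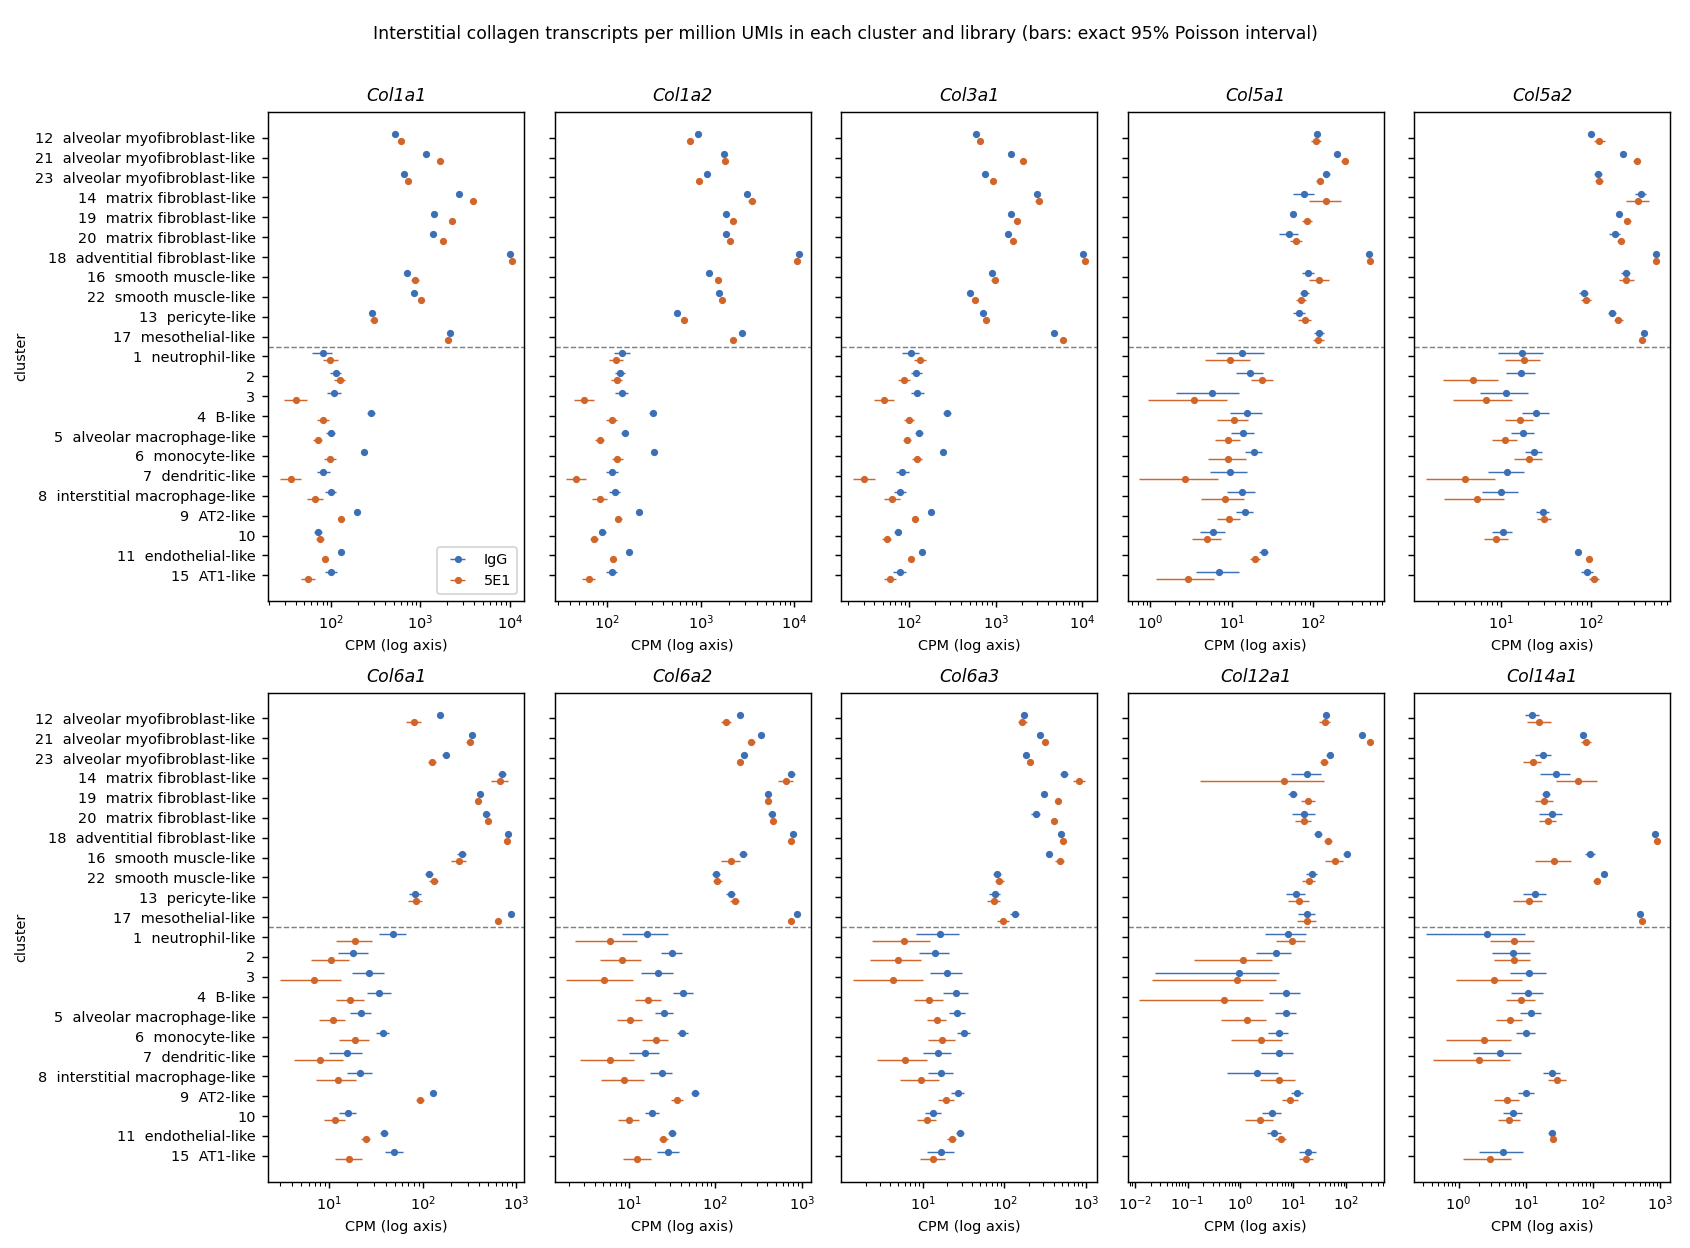
Level of each collagen gene (CPM, log axis) in the 23 clusters, with the IgG library in blue and the 5E1 library in orange and bars for the exact 95% Poisson interval. The 11 mesenchymal clusters lie above the dashed line, and cluster 18 holds the highest Col1a1 level (10050.3 CPM with IgG and 10636 CPM with 5E1) while Col12a1 is highest in cluster 21.

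Col1a1 and Col1a2, the chains of type I collagen, followed the same order of clusters. Col1a1 stood at 10050.3 CPM in cluster 18 of the IgG library and at 10636 CPM in that of the 5E1 library. Cluster 14 followed with 2705 and 3856 CPM. At the low end pericyte-like cluster 13 held 286 and 301.5 CPM. Adventitial fibroblast-like cells thus stood far above pericyte-like cells in both libraries, while neighbours in the order such as clusters 19 (1412 CPM) and 20 (1369 CPM) of the IgG library had overlapping intervals. Col1a2 ran from 11223 CPM in cluster 18 to 565 CPM in cluster 13 in the IgG library, and from 10806 to 661 CPM in the 5E1 library.

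Col3a1, the single chain of type III collagen, departed from this order in the mesothelial-like cells. Cluster 17 held 4652 CPM with IgG and 5956 CPM with 5E1, behind cluster 18 (10091 and 10713 CPM) and ahead of cluster 14 (2977 and 3124 CPM). There were 2.17 Col3a1 UMIs per Col1a1 UMI in cluster 17 of the IgG library (95% interval 2.09 to 2.26) and 2.95 (2.82 to 3.07) in that of the 5E1 library. Only pericyte-like cluster 13 of the IgG library was higher, at 2.50 (2.27 to 2.75), with 2.56 in the 5E1 library. Smooth muscle-like cluster 22 was lowest, with 0.607 (0.572 to 0.644) and 0.571 Col3a1 UMIs per Col1a1 UMI. The mix of type I and type III transcripts therefore differed between mesenchymal clusters well beyond counting error.

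Col5a1 and Col5a2, chains of type V collagen, were both highest in cluster 18, at 481 and 497 CPM for Col5a1 and at 525 and 532 CPM for Col5a2. Below that they parted. Col5a1 was next highest in alveolar myofibroblast-like cluster 21 (195 and 241 CPM), whereas Col5a2 was next highest in mesothelial-like cluster 17 (389 and 369 CPM) and matrix fibroblast-like cluster 14 (356 and 332 CPM). Myofibroblast-like cluster 23 of the IgG library had 1.21 Col5a1 UMIs per Col5a2 UMI (1.05 to 1.40), and cluster 12 had 1.12 (1.001 to 1.252). Matrix fibroblast-like clusters 14, 19 and 20 had 0.216 (0.154 to 0.298), 0.277 (0.251 to 0.305) and 0.271 (0.197 to 0.367). No mesenchymal cluster had intervals of this ratio that stood apart between the libraries.

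Col5a2 lies beside Col3a1 in the genome. On mouse build mm10 (GRCm38), Col3a1 occupies bases 45311538 to 45349706 of chromosome 1 (plus strand) and Col5a2 bases 45374321 to 45503282 (minus strand), with 24.6 kb between their 3′ ends. Over the 22 mesenchymal cluster-by-library sums their log2 levels had a Pearson r of 0.91, against 0.54 between Col5a2 and its partner Col5a1. An r of this size was not particular to neighbours. Col3a1 had an r of 0.91 with Col6a2 and 0.89 with Col1a1, which lie on other chromosomes, and a lower one with others such as Col6a3 (0.49). The sums share libraries, depth and free RNA, so each r describes them and is no test.

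The 250 bases before the start of Col3a1 and of Col5a1 are shown because these fibril-forming genes had unlike orders of clusters and unlike upstream sequence. They come from RefSeq on GRCm38.p6, plus strand. They run from chr1:45311288-45311537 and chr2:27886175-27886424, each ending on the base before the annotated gene start. Capitals mark matches to the TATA box TATAAA. They also mark the GC box, spelled GGGCGG and searched on both strands, like the letters CCAAT.
Col3a1: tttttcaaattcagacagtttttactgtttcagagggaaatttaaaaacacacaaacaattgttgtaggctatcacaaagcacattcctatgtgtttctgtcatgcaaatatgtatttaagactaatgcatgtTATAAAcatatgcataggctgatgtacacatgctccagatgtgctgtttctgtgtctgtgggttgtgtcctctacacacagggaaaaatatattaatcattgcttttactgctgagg
Col5a1: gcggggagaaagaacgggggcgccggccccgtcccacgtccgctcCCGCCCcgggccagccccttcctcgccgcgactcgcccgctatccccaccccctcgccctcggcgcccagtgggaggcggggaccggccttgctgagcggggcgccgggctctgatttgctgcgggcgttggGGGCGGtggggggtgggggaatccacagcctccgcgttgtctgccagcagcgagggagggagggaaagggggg
The Col3a1 window was 35.2% G or C and held a TATAAA match that began 117 bases before the start. The Col5a1 window was 76.4% G or C and held the GC box 73 bases before the start and, on the minus strand, 205 bases before it. Of 32851 mouse windows of this length 12.4% held TATAAA and 32.7% the GC box in either orientation, so neither match is rare. Windows were found for Col1a2, Col3a1, Col5a1, Col6a1, Col6a2 and Col6a3. The GLI site GACCACCCA, the letters bound by the transcription factors of the Hedgehog pathway, was in 0.225% of all windows and in 0 of the 7 windows of these 6 genes.

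The collagen VI genes Col6a1 and Col6a2 lie on chromosome 10 of mm10, both on the minus strand, at 76708792 to 76726168 and 76595762 to 76623630, with 85.2 kb between them. Their products bind in equal numbers with that of Col6a3, which lies on chromosome 1 at 90765923 to 90843971 on the minus strand. Col6a1 was highest in mesothelial-like cluster 17 of the IgG library (865 CPM), with an interval that overlapped that of adventitial fibroblast-like cluster 18 (818 CPM), and in the 5E1 library it was highest in cluster 18 (798 CPM). Col6a2 had the same leading clusters, with 884 CPM in cluster 17 and 801 CPM in cluster 18 of the IgG library. Col6a3 did not, standing at 133 CPM in cluster 17 and reaching its height in matrix fibroblast-like cluster 14 (538 CPM with IgG and 820 CPM with 5E1).

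Mesothelial-like cells thus held few Col6a3 transcripts for their Col6a1. Cluster 17 had 0.154 Col6a3 UMIs per Col6a1 UMI in the IgG library (0.134 to 0.176) and 0.153 (0.127 to 0.183) in the 5E1 library. The other 10 mesenchymal clusters of the IgG library ran from 0.509 in cluster 20 to 1.34 in smooth muscle-like cluster 16. Col6a2 kept closer to Col6a1, with 0.810 to 1.81 UMIs per Col6a1 UMI over the 11 clusters of the IgG library. The log2 levels of Col6a1 and Col6a2 had an r of 0.94 over the 22 mesenchymal sums, and those of Col6a1 and Col6a3 an r of 0.64, again as a description.

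Upstream windows of Col6a2 and Col6a3 are printed because these chains of one collagen parted between clusters. Both are from RefSeq on GRCm38.p6, minus strand, from chr10:76623631-76623880 and chr1:90843972-90844221, with capitals as above.
Col6a2: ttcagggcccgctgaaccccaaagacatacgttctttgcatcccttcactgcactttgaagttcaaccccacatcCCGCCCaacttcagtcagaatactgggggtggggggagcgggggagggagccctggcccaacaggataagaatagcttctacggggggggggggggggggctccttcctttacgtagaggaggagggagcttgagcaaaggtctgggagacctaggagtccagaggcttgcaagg
Col6a3: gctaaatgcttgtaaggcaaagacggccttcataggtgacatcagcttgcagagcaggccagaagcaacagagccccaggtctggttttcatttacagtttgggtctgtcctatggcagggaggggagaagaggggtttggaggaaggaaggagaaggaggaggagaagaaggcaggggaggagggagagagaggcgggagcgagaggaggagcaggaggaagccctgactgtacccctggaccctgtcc
The Col6a2 window held the GC box on the other strand 175 bases before this start, and a second RefSeq start of Col6a2 at 76623404 had 3 such matches in its own window. The Col6a3 window held none of the letters searched, nor did that of Col6a1, which is not printed because its RefSeq start lies apart from the annotated start of the gene.

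Col12a1 and Col14a1, whose products attach to fibril surfaces, had unlike patterns. Col12a1 was highest in alveolar myofibroblast-like cluster 21, with 198 CPM with IgG and 281 CPM with 5E1, and next in smooth muscle-like cluster 16, with 103 and 60.4 CPM. In matrix fibroblast-like cluster 19 it stood at 9.74 and 19.03 CPM. Col14a1 was highest in adventitial fibroblast-like cluster 18 (849 and 914 CPM) and mesothelial-like cluster 17 (506 and 541 CPM), and at or below 149 CPM in every other mesenchymal cluster of either library. The r between their log2 levels over the 22 mesenchymal sums was 0.12. Col12a1 is a minus-strand gene of chromosome 9 (79598991 to 79718831) and Col14a1 a plus-strand gene of chromosome 15 (55307750 to 55520803). Col1a1 lies on chromosome 11 (94936224 to 94953042), Col1a2 on chromosome 6 (4504814 to 4541544) and Col5a1 on chromosome 2 (27886425 to 28039514), all on the plus strand.

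These levels and the numbers of cells together set where the transcripts of each gene lay. Cluster 18 made up 6.60% of cells in the IgG library and held 54.1% of Col1a1 UMIs, 47.3% of Col1a2, 49.5% of Col3a1 and 58.5% of Col14a1 UMIs. In the 5E1 library, where it was 4.97% of cells, it held 54.2%, 49.8%, 49.6% and 58.2%. The 3 alveolar myofibroblast-like clusters held 64.2% and 56.1% of Col12a1 UMIs. Collagen VI transcripts were spread wider, with 29.6% of Col6a1 UMIs of the IgG library in the matrix fibroblast-like clusters, 24.4% in cluster 18 and 19.7% in the myofibroblast-like clusters. Col5a2 had the largest share outside the mesenchyme among the members, 13.8% in the IgG and 25.5% in the 5E1 library.

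**Figure D2:**
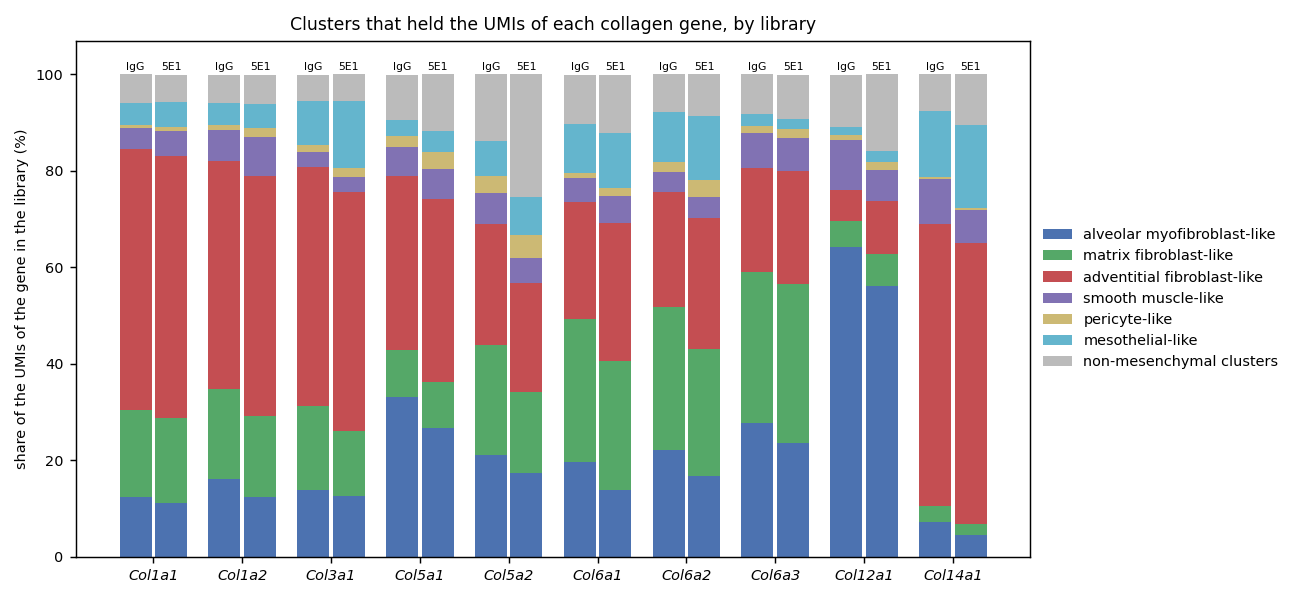
Share of the UMIs of each gene (%, linear axis from 0) that lay in each group of clusters, with the IgG library on the left and the 5E1 library on the right of each pair of bars. Cluster 18 (adventitial fibroblast-like) holds 54.1% and 54.2% of Col1a1 UMIs, and the myofibroblast-like clusters hold 64.2% and 56.1% of Col12a1 UMIs.

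Cells of one cluster differed among themselves. When each cell was thinned to 1000 UMIs, the median cell of cluster 18 held 31 member UMIs with IgG and 32 with 5E1, with a lowest decile of 10 and 11.5 and a highest decile of 69 and 70. In cluster 21 the median was 6 in the IgG and 8 in the 5E1 library. In cluster 23 it was 3 in both. After the same thinning Col1a1 was seen in 96.6% of cluster 18 cells of the IgG library and in 97.6% of those of the 5E1 library (unthinned, 99.4% and 99.2%). B-like cluster 4, which should lack it, gave 5.87% and 3.76% (unthinned, 18.4% and 12.7%, with median depths of 2498 and 3325 UMIs against 4992 and 5602 in cluster 18).

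Between the libraries, whole-library sums of all 10 genes were lower with 5E1. Col1a1 stood at 1150 CPM with IgG and 961 CPM with 5E1, a ratio of 0.836 (0.827 to 0.845). Col6a1 stood at 207 and 136 CPM, a ratio of 0.657, and Col5a2 at 130 and 115 CPM, a ratio of 0.887, and these genes and Col6a2 (0.657) bounded the range. Weighting the 5E1 clusters by their shares in the IgG library took the ratio of Col1a1 to 1.15, of Col3a1 to 1.11, of Col6a3 to 1.18 and of Col12a1 to 1.19. The ratio was still below 1 for Col6a1 (0.874), Col6a2 (0.875) and Col1a2 (0.979). With only the share of mesenchymal UMIs set to that of the IgG library, and the mix of clusters on either side kept, the ratio was 1.16 for Col1a1, 1.17 for Col3a1, 1.07 for Col6a3 and 0.957 for Col12a1. The comparisons that follow are made within clusters.

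Within the 11 mesenchymal clusters, 106 of the 110 pairs of a gene and a cluster passed a floor of 50 UMIs summed over the libraries. The pairs under that floor were Col12a1 and Col14a1 in clusters 13 and 14. A ratio of 5E1 over IgG of at least 1.5 was found in 6 pairs (5.66%), and over all features of the same clusters in 4.87%. A ratio of at most 1 over 1.5 was found in 3 pairs (2.83%), and over all features in 7.74%. The share of members called higher was thus near that of all features, and the share called lower, from 3 pairs, was below it. Counting error is larger at few UMIs, and the features were not matched to the members by UMI number. Among cells with an Xist UMI and no Y-linked UMI in both libraries, 10 of 103 measured pairs were past the fold upward (9.71%) and 11 downward (10.7%). Over all features of these cells the shares were 6.1% and 14.6%. Over all cells of these clusters, without that selection, the median log2 ratio was 0.08 for the members and -0.04 for all features.

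The 95% counting interval of the ratio lay above 1 in 41 of the 106 pairs and below 1 in 18, against 8.82% and 12.3% of pairs over all features. Intervals narrow as UMIs rise, and the features were not matched to the members by UMI number, so these shares are not like for like. Col3a1 was above 1 in 11 of 11 clusters, with 8 intervals clear of 1 and ratios from 1.05 to 1.41. Col1a1 was above 1 in 10 of 11 clusters, with 9 intervals clear above 1 and 1 below, in mesothelial-like cluster 17 (0.944). Col1a2 was mixed, with 7 intervals above 1 and 4 below. Col6a1 and Col6a2 were above 1 in 3 of 11 clusters each, and no interval lay above 1.

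**Figure D3:**
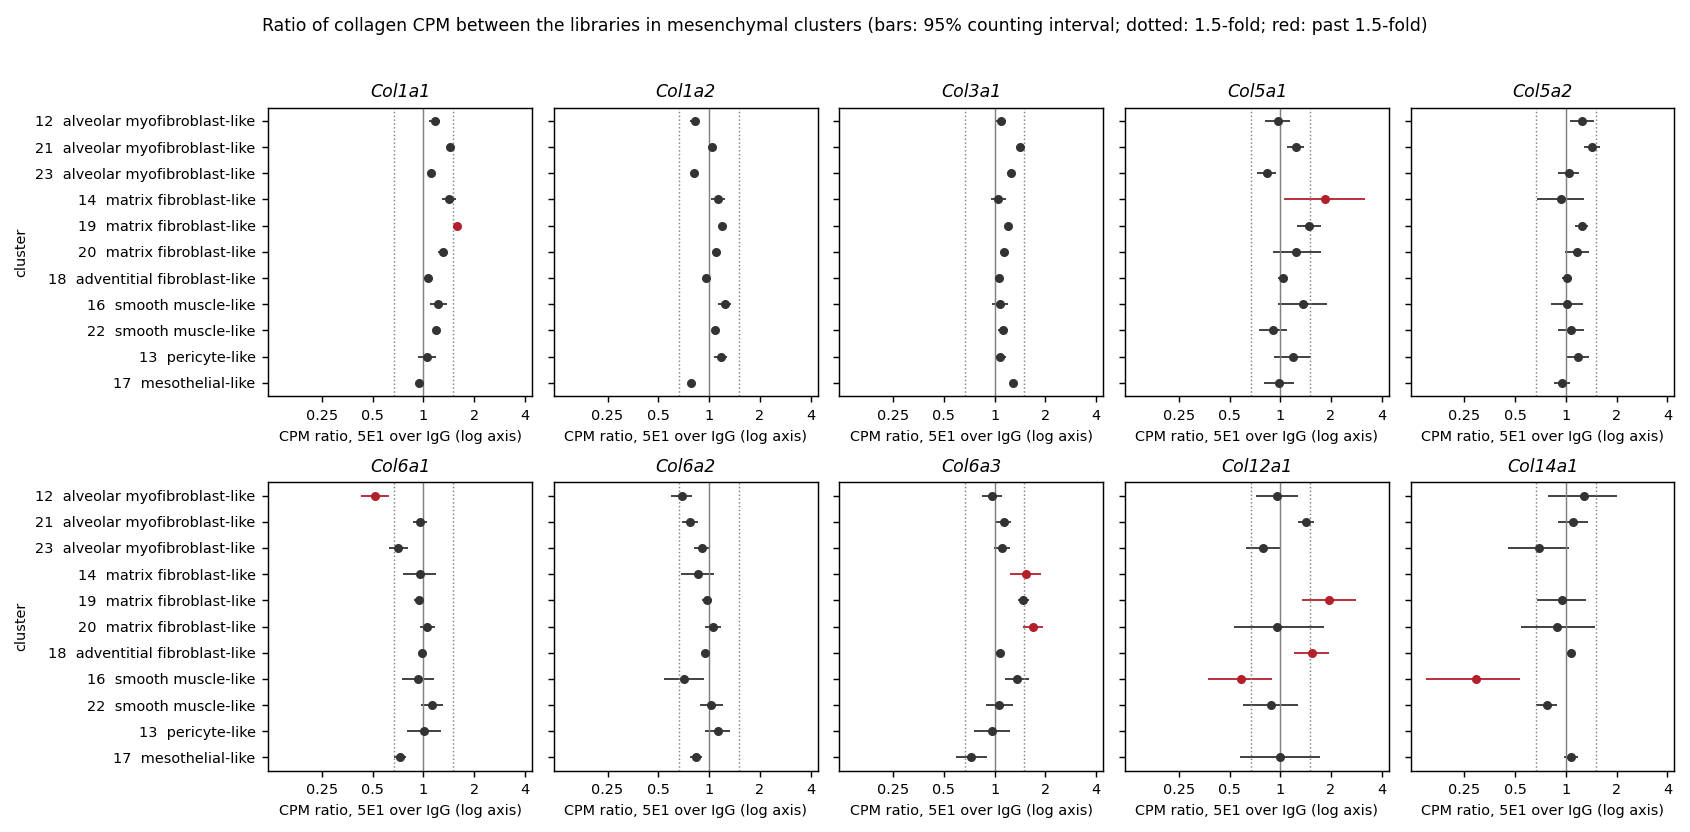
Ratio of CPM in the 5E1 over the IgG library (log axis) for each gene in the mesenchymal clusters with at least 50 UMIs, with 95% counting intervals. Red points are past 1.5-fold (dotted lines), namely 6 pairs to the right and 3 to the left, and all 11 Col3a1 points lie right of 1 while 8 of 11 Col6a1 points lie left of it.

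Matrix fibroblast-like cluster 19, the largest mesenchymal cluster of the IgG library, held 2 of the calls among its 10 measured members (5.95% of all features there were called higher). Col1a1 stood at 1412 CPM from 13038 UMIs in the IgG library and at 2238 CPM from 5527 UMIs in the 5E1 library, a ratio of 1.59 (1.54 to 1.64). After thinning to 1000 UMIs per cell, Col1a1 was seen in 68.7% and 76.8% of its cells, and the log2 ratio of thinned counts was 0.57, just short of the 1.5-fold mark. Col12a1 stood at 9.74 CPM (90 UMIs) and 19.03 CPM (47 UMIs), a ratio of 1.95 (1.34 to 2.81). The IgG level of Col12a1 lay close to those of immune clusters, which ran up to 8.02 CPM with IgG. With 5E1 the immune clusters ran up to 9.38 CPM, from 11 UMIs, against 19.03 CPM in cluster 19. Just short of the mark in this cluster were Col5a1 at 1.49 (1.26 to 1.75) and Col6a3 at 1.48 (1.38 to 1.59).

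Matrix fibroblast-like clusters 14 and 20 showed Col6a3 higher with 5E1. In cluster 20 it stood at 242 CPM with IgG and 406 CPM with 5E1, a ratio of 1.68 (1.46 to 1.93), the only call among 10 members there (7.01% of features called higher). After thinning, the log2 ratio of Col6a3 in this cluster was 0.42, under the mark. In cluster 14 Col6a3 stood at 538 and 820 CPM, a ratio of 1.53 (1.23 to 1.89). Col5a1 in cluster 14 had 46 UMIs with IgG and 21 with 5E1, for 76.8 and 142 CPM and a ratio of 1.85 (1.05 to 3.17). Cluster 14 had 67 cells in the 5E1 library, and 9.79% of its features were called higher and 21.4% lower. Its median log2 ratio over all features was -0.19, so that against the median feature the members there stand higher by that amount.

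In adventitial fibroblast-like cluster 18 the very high fibrillar collagens differed little. Col1a1 had a ratio of 1.06 (1.04 to 1.07), Col3a1 1.06 (1.05 to 1.08) and Col1a2 0.963 (0.949 to 0.976). The call in this cluster was Col12a1, with 29.7 CPM (142 UMIs) in the IgG and 45.4 CPM (131 UMIs) in the 5E1 library, a ratio of 1.53 (1.20 to 1.96), where 3.17% of features were called higher. After thinning, Col12a1 was seen in 1.69% (0.951% to 2.78%) and 3.65% (2.14% to 5.78%) of cells, and the B-like cluster gave 1.07% in the IgG library and 0 of 426 thinned cells in the 5E1 library, which allows a share of up to 0.704%.

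The alveolar myofibroblast-like clusters were not alike. Markers among their leading genes included Egfem1 and P2ry14 in clusters 12 and 23, and Aspn and Fgf18 in cluster 21. In cluster 21 Col1a1 (1153 and 1658 CPM, ratio 1.44), Col5a2 (224 and 320 CPM, 1.43), Col12a1 (198 and 281 CPM, 1.42) and Col3a1 (1487 and 2092 CPM, 1.41) all lay just under the 1.5-fold mark. There 7 of 10 intervals were above 1, beside 9.76% of all features, which were again not matched by UMI number. Col1a1 was seen in 63.6% and 81.9% of thinned cells of cluster 21. In cluster 12 Col6a1 stood at 153 CPM (914 UMIs) in the IgG and 79.6 CPM (129 UMIs) in the 5E1 library, a ratio of 0.520 (0.429 to 0.626), which was the only member called there (10.6% of features were called lower). In the same cluster Col6a2 had a ratio of 0.689 (0.593 to 0.797), and Col6a3 one of 0.965 (0.841 to 1.11). In cluster 23 Col6a1 had a ratio of 0.712 (0.626 to 0.808), and Col3a1 one of 1.24 (1.18 to 1.31).

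In smooth muscle-like cluster 16 both fibril-associated chains were lower with 5E1, the only calls among its 10 members (12.3% of features were called lower). Col14a1 stood at 91.2 CPM from 135 UMIs in the IgG and at 26.8 CPM from 12 UMIs in the 5E1 library, 3.40-fold lower. Col12a1 stood at 103 CPM (152 UMIs) and 60.4 CPM (27 UMIs), a ratio of 0.588 (0.375 to 0.889). The 5E1 library had 84 cells of this cluster. Among cells with an Xist UMI and no Y-linked UMI, the ratio of Col14a1 was 0.540 and that of Col12a1 0.566. In the other smooth muscle-like cluster, 22, Col14a1 had a ratio of 0.768 (0.664 to 0.888) and Col12a1 one of 0.877 (0.603 to 1.27).

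Pericyte-like cluster 13 had no member past the fold among 8 measured (3.94% of features were called higher and 4.32% lower), and mesothelial-like cluster 17 none among 10 (4.99% and 5.84%). Col3a1 in cluster 17 stood at 4652 and 5956 CPM, a ratio of 1.28 (1.24 to 1.32), while its Col1a2 (0.786), Col6a1 (0.728) and Col6a3 (0.727) were below 1 with intervals clear of it.

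Within types I and VI the balance of some chains differed between the libraries, while for type V no mesenchymal cluster had intervals that stood apart. Between types, Col3a1 UMIs per Col1a1 UMI stood apart upward in 2 of 11 clusters and downward in 3. Col5a2 UMIs per Col1a1 UMI stood apart in 1, downward. Pairs of genes outside the members were not measured, and intervals narrow as UMIs rise, so these counts have no background share beside them. Since both chains of a pair were counted in the same cells, the UMI total of the cluster divides out of their ratio. The weight of deep cells in the sums and free RNA do not, and thinning changed the ratios, as given below. Type I collagen had 0.506 to 0.896 Col1a1 UMIs per Col1a2 UMI over the 11 mesenchymal clusters of the IgG library and 0.456 to 1.09 over those of the 5E1 library. The 95% intervals stood apart in 9 of 11 clusters, each time with the higher ratio in the 5E1 library. In cluster 19 the ratio was 0.756 (0.739 to 0.774) and 1.01 (0.969 to 1.04). In myofibroblast-like cluster 12 it was 0.540 (0.517 to 0.565) and 0.768 (0.706 to 0.836), the largest change of the 11. The clusters without a gap were pericyte-like 13 (0.506 and 0.456) and smooth muscle-like 16 (0.579 and 0.572).

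The median change of this ratio was 1.20 over the mesenchymal clusters. It was 1.15 after thinning and 1.14 among cells with an Xist UMI and no Y-linked UMI, with 10 of 11 clusters higher in each. With the level of the B-like cluster subtracted, the change was 1.31 and 11 of 11 clusters were higher. That level leaned on a single B-like cell of the IgG library, which held 204 of the cluster's 380 Col1a1 UMIs and 168 of its 420 Col1a2 UMIs. The change with that cell left out was not measured. Outside the mesenchyme, intervals stood apart in 0 of 12 clusters and the median change was 1.04, with far fewer UMIs per cluster. The pairs of libraries are 1 against 1, so how far this ratio varies between pools of pups that received the same antibody was not measured.

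Type VI collagen showed a second shift of balance. Col6a3 UMIs per Col6a1 UMI stood apart in 6 of 11 clusters (12, 14, 16, 19, 20 and 23), each time higher with 5E1, with a median change of 1.46 over all 11. In cluster 12 the ratio was 1.12 (1.03 to 1.23) and 2.09 (1.68 to 2.59). In cluster 19 it was 0.737 (0.701 to 0.774) and 1.16 (1.06 to 1.27), and in cluster 23 it was 1.05 (0.930 to 1.18) and 1.63 (1.45 to 1.84). Thinning left the median change at 1.20 over 9 measured clusters, 7 of them higher. Col6a2 UMIs per Col6a1 UMI had a median change of 0.999, with intervals apart upward in cluster 23 and downward in cluster 21 alone.

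**Figure D4:**
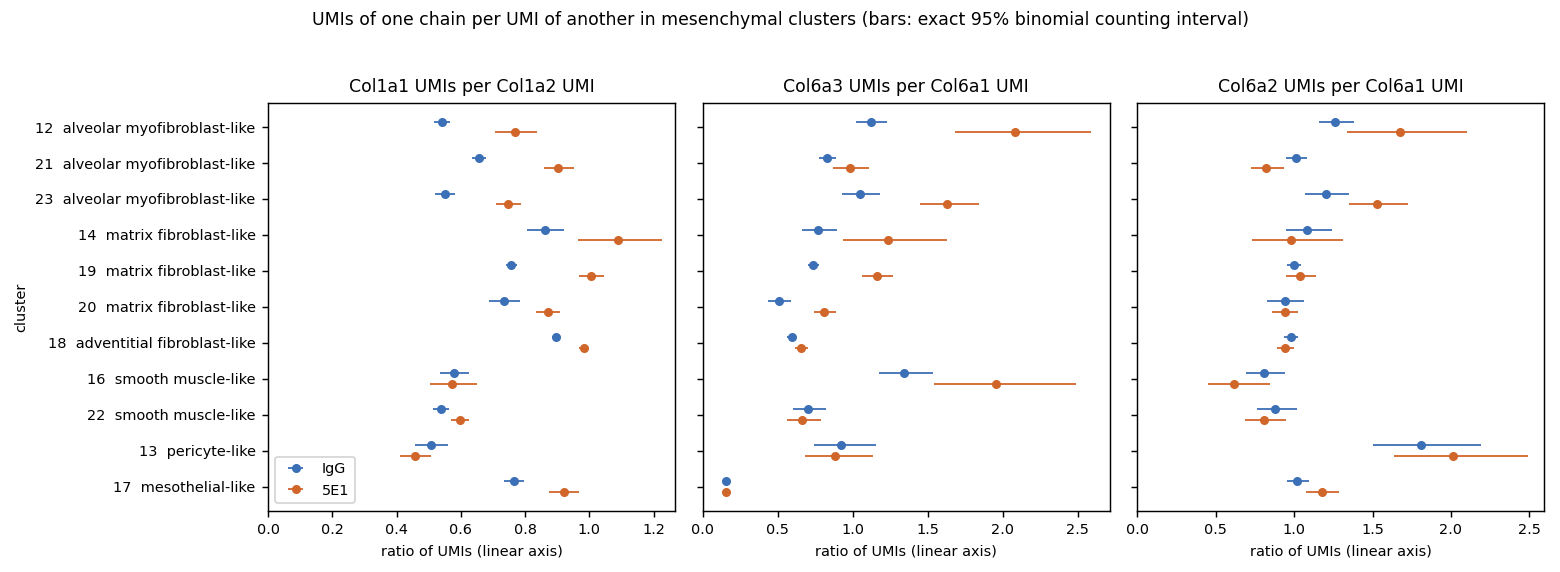
UMIs of one chain per UMI of another (linear axes from 0) in the 11 mesenchymal clusters, with the IgG library in blue, the 5E1 library in orange and exact 95% binomial counting intervals. For Col1a1 per Col1a2 the 5E1 point lies to the right with no overlap in 9 of 11 clusters, for Col6a3 per Col6a1 in 6 of 11, and for Col6a2 per Col6a1 in cluster 23 alone.

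Outside the mesenchyme the members were lower in the 5E1 library in 72 of 83 pairs of a gene and a cluster with at least 50 UMIs. Of these pairs, 45 were past 1.5-fold lower and 0 higher, where all features gave 5.5% lower and 3.97% higher. The 6 named immune clusters held 80.2 to 277 CPM of Col1a1 in the IgG library and 35.4 to 98.1 CPM in the 5E1 library. Collagen transcripts in cells of this kind commonly come from RNA set free during digestion or from droplets with more than one cell, and their part here was not tested. In B-like cluster 4 of the IgG library, a single cell among 380 held 606 of its 1399 member UMIs. Without that cell its Col1a1 level was 129 CPM in place of 277 CPM. In the 5E1 library the level was 81.0 CPM, and 58.8 CPM without a single cell that held 141 of the cluster's 781 member UMIs.

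Some mesenchymal clusters held levels near those of the B-like cluster. In the IgG library Col1a1 and Col3a1 were under 3 times its level in 4 mesenchymal clusters each and Col1a2 in 1, and without the single B-like cell in 1, 0 and 0. In the 5E1 library these genes were so in 0 clusters. Col14a1 was under that mark in 6 clusters with IgG, or 2 without the cell, and in 5 with 5E1. Col12a1 was under it in 5 clusters with IgG, with or without the cell. With 5E1 it was so in 0, where the B-like cluster held 1 Col12a1 UMI. For Col1a1 these low clusters included pericyte-like cluster 13, at 286 and 301.5 CPM. Subtracting the B-like level from both libraries raised the members called higher from 6 to 28 of 106 pairs, while subtracting the median of the 6 immune clusters, an alternative chosen after seeing the data, gave 11.

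UMIs of each gene per Col1a1 UMI were compared across the clusters outside the mesenchyme. These ratios varied among the immune clusters themselves. Whether free RNA or droplets with more than 1 cell gave the values below was not tested. Col5a2 stood apart in endothelial-like cluster 11, with 0.564 UMIs per Col1a1 UMI in the IgG library (0.515 to 0.617) and 1.13 (1.03 to 1.23) in the 5E1 library, and in the alveolar type 1-like (AT1-like) cluster 15, with 0.901 (0.721 to 1.13) and 1.98 (1.60 to 2.46). The immune clusters gave 0.0895 to 0.217 and 0.0833 to 0.209. Its level was 71.8 and 95.8 CPM in cluster 11 and 90.4 and 109 CPM in cluster 15, where it was found in 90 of 287 and 163 of 443 cells. Unlike most members in these clusters, Col5a2 was not lower in the 5E1 library, with a ratio of 1.33 (1.22 to 1.47) in cluster 11 and 1.21 (0.985 to 1.48) in cluster 15.

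Col6a1 was high in alveolar type 2-like (AT2-like) cluster 9, with 0.658 UMIs per Col1a1 UMI (0.594 to 0.728) and 0.728 (0.639 to 0.829), for 128 and 93.6 CPM. The immune clusters gave 0.154 to 0.226 in the 5E1 library. In the IgG library they gave 0.124 to 0.600, and the highest, neutrophil-like cluster 1 with 36 Col6a1 UMIs, overlapped cluster 9 in its interval. Its partner Col6a2 stood at 0.299 and 0.279 per Col1a1 UMI in cluster 9. Col12a1 was raised in AT1-like cluster 15, at 0.186 (0.123 to 0.273) and 0.318 (0.219 to 0.453) per Col1a1 UMI, from 32 and 42 UMIs, against at most 0.100 and 0.0957 in the immune clusters.

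Col14a1 was found in interstitial macrophage-like cluster 8, with 49 UMIs in 40 of 323 cells of the IgG library and 43 UMIs in 33 of 234 cells of the 5E1 library. That made 0.253 (0.181 to 0.347) and 0.448 (0.305 to 0.648) per Col1a1 UMI, against 0.0333 to 0.122 and 0.0245 to 0.107 in the other 5 immune clusters. Endothelial-like cluster 11 had 0.193 (0.168 to 0.221) and 0.302 (0.265 to 0.344). The UMIs of Col14a1 in cluster 8 were spread over cells, with at most 6 in a cell of the IgG and 2 in a cell of the 5E1 library.

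**Figure D5:**
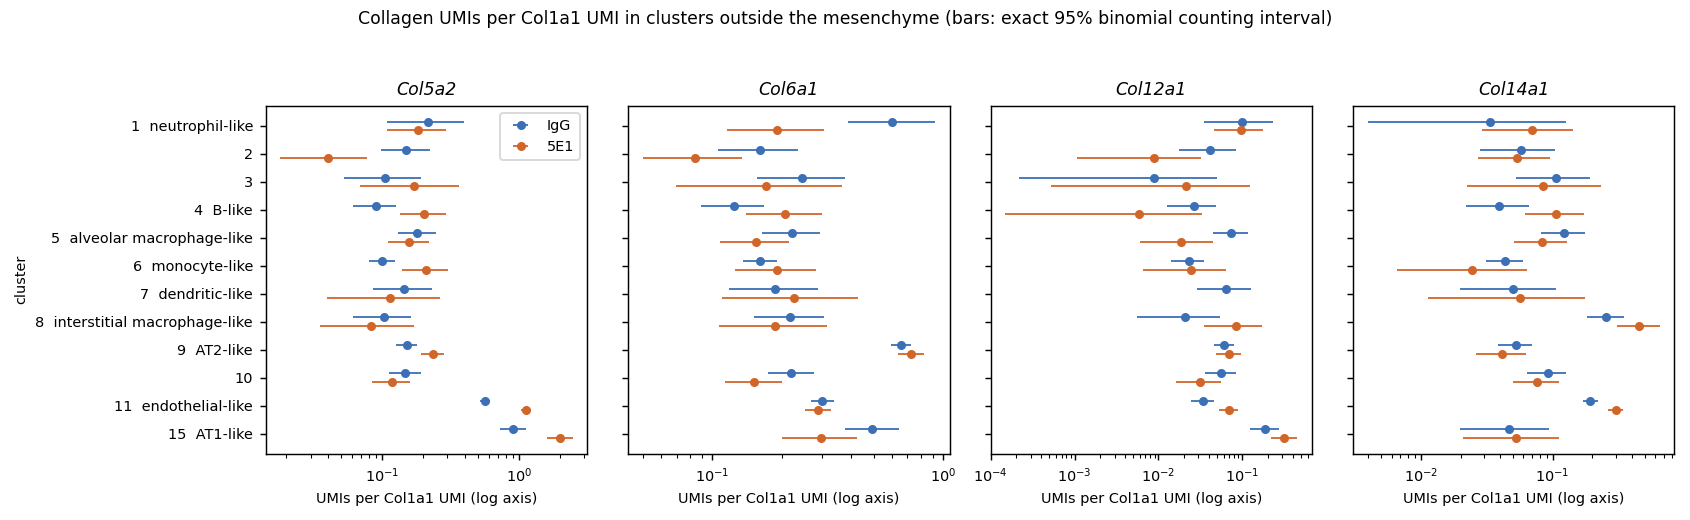
UMIs of Col5a2, Col6a1, Col12a1 and Col14a1 per Col1a1 UMI (log axes) in the 12 clusters outside the mesenchyme, with the IgG library in blue, the 5E1 library in orange and exact 95% binomial counting intervals. Col5a2 lies far to the right in clusters 11 and 15. Col6a1 is highest in cluster 9, where its IgG interval overlaps those of clusters 1 and 15. Col14a1 is highest in cluster 8, where its intervals overlap those of cluster 11. Points with 0 UMIs are not drawn.

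The genes whose pattern was most like that of each member were ranked by Pearson r of log2(CPM + 1) over the 46 cluster-by-library sums, among 7366 features with enough UMIs. Loxl1, a lysyl oxidase-like enzyme that cross-links elastin and collagen, ranked first for Col1a1 (r = 0.95) and Col1a2 (r = 0.97). Adamts2, the protease that removes the amino-terminal propeptide of fibrillar procollagens, was among the first 3 for Col1a1, Col1a2, Col3a1 and Col5a1 (r = 0.94 to 0.96). Col5a2 was closest to Sparc, which binds collagen, and to the endoplasmic reticulum proteins Fkbp7 and Serpinh1, the latter the collagen chaperone (r = 0.96, 0.95 and 0.94). The third gene for Col1a1 was Gas1 and for Col1a2 the fibril-associated collagen Col16a1 (r = 0.94 and 0.95), and Col3a1 was closest to these genes (r = 0.95 each). Col5a1 was next closest to C1qtnf2 and the proteoglycan gene Bgn (r = 0.95 and 0.94). Of the collagen VI chains, Col6a1 was closest to Scarf2, then Gas1 and Loxl1 (r = 0.95, 0.93 and 0.92), Col6a2 to Col16a1, then Scarf2 and Boc (r = 0.97, 0.96 and 0.95), and Col6a3 to Islr, then Boc and Scarf2 (r = 0.97, 0.96 and 0.95). Gas1 and Boc encode cell-surface co-receptors for Hedgehog. Col12a1 was closest to Tgfb3, Prss35 and Angptl2 (r = 0.89, 0.89 and 0.88), and Col14a1 to Dcn, Tnxb and Mfap5, matrix proteins of adventitial tissue (r = 0.86, 0.86 and 0.84). All sums of one library share its free RNA, and the r is a description.

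Of 32 genes for collagen folding, modification, secretion and trimming, 276 pairs with a mesenchymal cluster passed the floor, of which 14 were higher and 16 lower with 5E1 (5.07% and 5.80%, against 4.87% and 7.74% for all features). Pcolce2, an enhancer of the protease that trims the carboxy-terminal propeptide, was higher in 6 clusters and lower in mesothelial-like cluster 17. In cluster 19 it stood at 317 and 599 CPM, a ratio of 1.89 (1.77 to 2.01), and in cluster 23 at 13.3 and 46.6 CPM, a ratio of 3.52 (2.48 to 5.08). Its relative Pcolce was lower in cluster 12, with 197 and 93.1 CPM and a ratio of 0.472 (0.396 to 0.560), and in cluster 23 (0.648). Adamts2 was higher in clusters 16, 20 and 21, with 233 and 387 CPM in cluster 21. P4ha2, a prolyl hydroxylase subunit, was lower in clusters 12, 17 and 23, with 20.4 and 8.63 CPM in cluster 12.

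The same cluster 12, where Col6a1 was lower, also had Creb3l1, a transcription factor of collagen secretion, at 14.6 and 6.17 CPM (87 and 10 UMIs). P4ha3 was lower in cluster 16 (73.0 and 33.5 CPM) and in cluster 19, where it had 71 and 11 UMIs. P3h4 in cluster 14 had 47 and 5 UMIs, with an interval of the ratio from 0.134 to 1.08. Tmem38b, a channel of the endoplasmic reticulum, was higher in cluster 20 (32.5 and 61.6 CPM) and in cluster 23 (6.14 and 13.3 CPM).

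Of 19 other interstitial collagens, 45 pairs passed the floor, of which 6 were higher (13.3%) and 8 lower (17.8%), beside 4.87% and 7.74% of all features. Col27a1, a fibril-forming chain best known from cartilage, was lower in clusters 12, 16, 17 and 23, with 167 and 96.02 CPM in cluster 23 (ratio 0.576, 0.501 to 0.661). Col13a1, a transmembrane collagen, was higher in cluster 23 (8.41 and 29.1 CPM, 26 and 103 UMIs) and cluster 12 and lower in cluster 21. Col16a1, a fibril-associated chain, was lower in clusters 14 (84 and 9 UMIs) and 16 (76 and 12 UMIs). Col11a1 was lower in cluster 17 (46 and 16 UMIs) and Col2a1 higher in cluster 12 (52 and 31 UMIs). Of 14 collagen receptors and uptake genes, 70 pairs passed, 6 higher (8.57%) and 3 lower (4.29%). Among them Itga1, the integrin subunit that binds collagen IV and I, was higher in cluster 23 (21 and 51 UMIs) and lower in cluster 21 (44 and 9 UMIs).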

How the data were processed

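The deposited matrices hold counts of UMIs per feature and cell. Per the labels, libraries followed a 3′ v2 droplet protocol with about 20000 cells loaded. Per the submitters' processing notes, Cell Ranger 3.1.1 and mouse build mm10 were used. The matrix header names software version 3.0.0. Cells and clusters are those of the deposited annotation, which kept 13509 of 15021 and 9454 of 10519 barcodes; doublets were not called. UMIs were summed per library and cluster with Python 3.11.15, numpy 2.4.6 and scipy 1.17.1. Called means a CPM ratio past 1.5-fold with at least 50 UMIs. Intervals are 95% (exact Poisson for levels, conditional binomial for ratios, Clopper-Pearson for shares). Cells were thinned to 1000 UMIs, leaving out 215 and 153 shallower cells. Clusters were named where at least 3 markers of a list were 4-fold higher and at least 1 was among the top 10 genes. Fewer than 2 markers of any other list could be among these, and a first gene found on any list had to be on the naming one. Named were every member, the 3 most similar genes of each, and listed genes past the fold in 3 clusters or past 2-fold in 1. The members and lists were chosen with earlier results of these data known. Gene positions are from GENCODE vM21. The ratio code was tested on simulated data. Alternatives are given in the closing section.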

Additional observations from a re-analysis of the deposited data

Results flagged for a closer look

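Col12a1 went in opposite directions in different mesenchymal clusters. The log2 ratio of 5E1 over IgG was 0.62 in adventitial fibroblast-like cluster 18 and 0.97 in matrix fibroblast-like cluster 19, and -0.77 in smooth muscle-like cluster 16. The difference between these clusters was not tested, since there was 1 library per condition. The UMIs behind the values were 142 and 131 in cluster 18, 90 and 47 in cluster 19, and 152 and 27 in cluster 16 (IgG and 5E1). Among cells with an Xist UMI and no Y-linked UMI the log2 ratios of Col12a1 were 0.75, 0.95 and -0.82, and with the median level of the immune clusters subtracted they were 0.90, 2.31 and -0.72. The value of 2.31 is unsteady, since the IgG level in cluster 19 was 9.74 CPM and immune clusters of that library ran up to 8.02 CPM.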

How the results depend on the processing

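The main counts were 6 pairs of a member and a mesenchymal cluster higher and 3 lower in the 5E1 library. They moved without the 5% of cells with the most UMIs (11 higher and 5 lower), among cells with an Xist UMI and no Y-linked UMI (10 and 11), with the B-like level subtracted (28 higher), with the median immune level subtracted, a setting added after seeing the data (11 higher), and with a floor of 200 UMIs (1 lower). A lower fold mark gave 18 and 13, and a fold of 2 gave 0 and 1. Median-ratio scaling gave 9 and 3, equal weight per cell 9 and 4, thinning to 1000 UMIs 4 and 4, no floor 7 and 4, and leaving out cells with a Ptprc, Epcam or Pecam1 UMI 7 and 3. The cause was not tested. No member ratio past the fold changed sign in the settings in which it was measured, 8 to 10 of 10. After thinning 4 of the 9 could be measured, of which Col1a1 in cluster 19 and Col6a3 in cluster 20 dropped under the fold. With 1 library per condition, leaving out a replicate was not possible. No paired analysis was possible because each condition has 1 library. Depth limits Col12a1 and Col14a1, which fell under the floor in clusters 13 and 14.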
